A study of Mus musculus with 24 samples.

Results

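The glutathione S-transferases described here are 10 of the 14763 genes measured on Affymetrix arrays of FVB/N mouse hearts: *Gsta3*, *Gsta4*, *Gstk1*, *Gstm1*, *Gstm2*, *Gstm5*, *Gstm7*, *Gstt1*, *Gstp1* and *Gsto1*. The genes were chosen by name after the log2 signals of the 6 groups of this study were known, and each is represented by the brightest probe set that carries its symbol. Their levels and differences between these groups are therefore given as a description. Calls of members in the fit over all genes are named, but because of that choice they do not serve as tests. Counts of members past a threshold in the main fit are printed beside the same share over all genes. All 10 passed the filter on dim probe sets, and all of the 16 probe sets that name them were above the 40th percentile of their array on at least 23 of the 24 arrays.

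The 3 genotypes were nontransgenic (Ntg) mice, mice whose transgene encodes a dominant negative PI3K (called dnPI3K, with reduced PI3K activity according to the labels) and mice whose transgene encodes a constitutively active PI3K (called caPI3K, with raised activity). All mice were FVB/N, were operated on at 4 months of age with either a sham procedure or a myocardial infarction (MI), and gave their hearts 8 weeks later, with 4 arrays in each of the 6 groups. The transgenes are stated to be expressed in the heart; the sources used here give no promoter, founder line or sex. The caPI3K MI samples carry 1 tag whose name says sham, but all their other labels say MI, and MI was used. Hearts were homogenized one by one, but whether arrays and animals match one to one is not stated, so every error below measures the spread between arrays.

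Glutathione S-transferases join the tripeptide glutathione to electrophilic compounds, among them products of lipid peroxidation and foreign chemicals, so that these can be exported from the cell. The soluble enzymes fall into classes named alpha, mu, pi, theta and omega, and the kappa enzyme is a separate type found in mitochondria and peroxisomes. Many of their genes are known targets of NRF2, a transcription factor held back by KEAP1 that binds the antioxidant response element. PI3K acts downstream of growth factor receptors and is known for its part in physiological growth of the heart.

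Promoter sequence was looked up because an antioxidant response element is the best known control site of the family. RefSeq promoters of build GRCm38.p6, 250 bases before to 50 bases after each annotated start, were found for 9 of the 10 genes, in 11 windows since *Gstm1* and *Gstm7* have 2 each; *Gsta4* is not in that table. The letters TGACNNNGC, the core of the element, were searched on both strands and lie in 3 of the 11 windows, against 12.4% of all 32851 promoters of the same length. The matches are printed here in 41 bases each, 5′ to 3′ on the strand of the gene, with the fixed letters of the motif in capitals.

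*Gsta3*, chr1:21240448-21240488, plus strand: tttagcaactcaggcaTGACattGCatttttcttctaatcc

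*Gstm5*, chr3:107895796-107895836, plus strand: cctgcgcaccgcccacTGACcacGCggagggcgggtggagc

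*Gstm7*, chr3:107931719-107931759, minus strand: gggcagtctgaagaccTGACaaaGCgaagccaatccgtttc

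The motif starts 121 bases before the annotated start in *Gsta3*, 42 bases before it in *Gstm5* and 129 bases before it in *Gstm7*. A variant, TGAGNNNGC, lies in 3 of the 11 windows, those of *Gstm5*, *Gstt1* and *Gstp1*, against 17.6% of all promoters. The forkhead core GTAAACA, searched because forkhead factors act downstream of PI3K, lies in 0 of the 11 windows and in 3.65% of all promoters. These are matches of letters within a short window, not measured binding sites.

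The 10 genes lie on 6 chromosomes. The mu class genes *Gstm1*, *Gstm2*, *Gstm5* and *Gstm7* are neighbours on chromosome 3, in the order *Gstm5*, *Gstm7*, *Gstm6*, *Gstm3*, *Gstm2*, *Gstm1*, *Gstm4*, with only pseudogenes annotated between them. *Gsta3* is on chromosome 1, *Gstk1* on 6, *Gsta4* on 9, *Gstt1* on 10, and *Gstp1* and *Gsto1* are both on 19. Mu class genes are close copies of each other, so their probe sets may share signal.

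Median signal lay between 102.5 and 118.2 on 23 arrays and was 150.3 on dnPI3K MI replicate 1. The defining cardiomyocyte markers *Myh6*, *Actc1* and *Tnnt2* were above the array median on all 24 arrays. The caPI3K sham replicates 1 to 3 differ from the other 21 arrays in sex-linked genes, with the Y-linked *Eif2s3y* at 10.55 to 10.99 on the log2 scale against 3.71 to 5.72, and *Xist* at 6.77 to 7.08 against 12.65 to 13.61. For the main results that use caPI3K sham hearts, values without these 3 arrays are given as well; they rest on 1 caPI3K sham array, whose spread is then taken from the other groups, so a call made or lost there says little. All levels below are log2 of signal plus a pseudocount of 11.23, differences are on that scale with their standard error (SE) from the model, and values after a group mean are the SD of 4 arrays. In whole hearts, fewer cells of a type and less RNA per cell cannot be told apart.

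**Figure D1:**
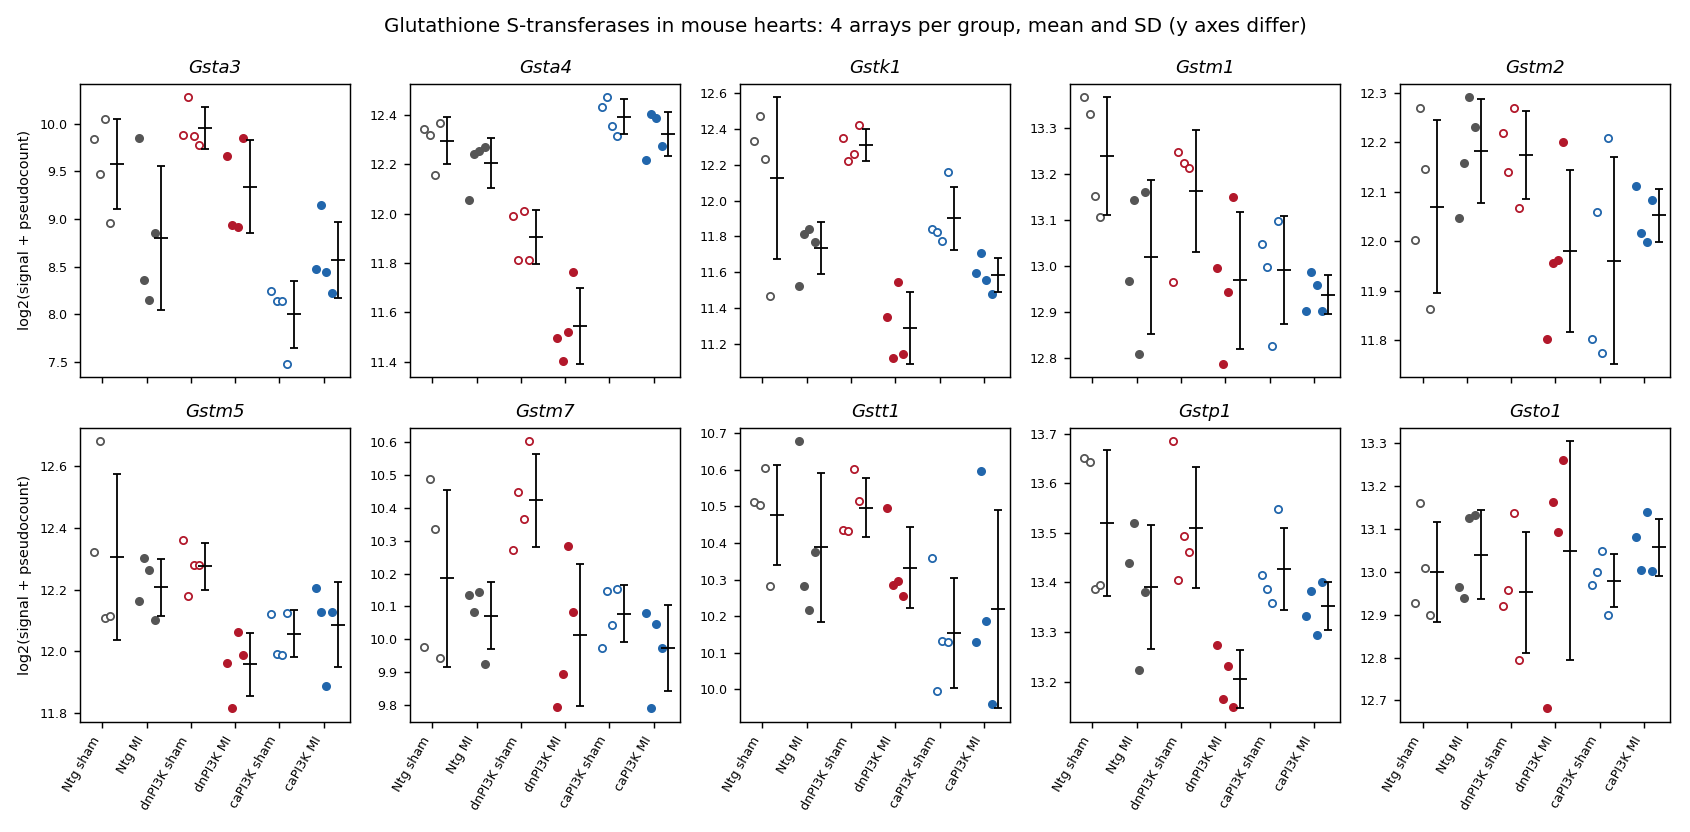
Level of each of the 10 glutathione S-transferase genes on every array. Each panel is a gene with its own y axis (log2 of signal plus the pseudocount), the 6 groups are along x, open points are sham and filled points MI arrays, and bars show the mean and SD of 4 arrays. *Gsta4* is lower in both dnPI3K groups than in the other 4, *Gstk1* is lowest in dnPI3K MI, and *Gsta3* is lowest in caPI3K sham.

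The alpha class gene *Gsta4* encodes an enzyme known for its high activity toward 4-hydroxynonenal, an aldehyde formed when lipids are oxidised. Its level was 12.34, 12.32, 12.16 and 12.37 in Ntg sham hearts and 12.06, 12.24, 12.25 and 12.27 in Ntg MI hearts. In dnPI3K hearts it was 11.99, 11.81, 12.01 and 11.81 after sham and 11.50, 11.40, 11.52 and 11.76 after MI. In caPI3K hearts it was 12.43, 12.47, 12.35 and 12.31 after sham and 12.22, 12.40, 12.39 and 12.28 after MI. All 8 dnPI3K arrays thus lie below all 16 arrays of the other genotypes, and all 4 dnPI3K MI arrays lie below all 4 dnPI3K sham arrays. From highest to lowest the group means were 12.39 ± 0.07 in caPI3K sham, 12.32 ± 0.09 in caPI3K MI, 12.30 ± 0.09 in Ntg sham, 12.21 ± 0.10 in Ntg MI, 11.91 ± 0.11 in dnPI3K sham and 11.55 ± 0.15 in dnPI3K MI (SD, n = 4 each). Arrays of neighbouring groups overlap among the first 4 of these groups and do not overlap in the last 2 steps.

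Against Ntg, *Gsta4* was lower in dnPI3K hearts by a difference of -0.39 (SE 0.08) after sham and -0.66 (SE 0.08) after MI, which are 0.763 and 0.633 times the Ntg level. Against dnPI3K, it was higher in caPI3K hearts by 0.49 (SE 0.08) after sham and 0.78 (SE 0.08) after MI. Between caPI3K and Ntg hearts the differences were 0.10 (SE 0.08) after sham and 0.12 (SE 0.08) after MI, within the range of arrays. Without the 3 caPI3K sham arrays with Y-linked signal, the sham difference between caPI3K and dnPI3K was 0.41 and was not past the threshold. The sham difference between dnPI3K and Ntg was not past it without dnPI3K sham replicate 2, without the 4 sham arrays numbered 415 to 418, or when those groups were fitted alone. *Gsta4* has 1 probe set on the array, so no further probe set could be set beside it.

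*Gstk1* encodes the kappa class enzyme of mitochondria and peroxisomes. Its level was 12.33, 12.47, 12.23 and 11.47 in Ntg sham hearts and 11.52, 11.82, 11.84 and 11.77 in Ntg MI hearts. In dnPI3K hearts it was 12.35, 12.22, 12.26 and 12.42 after sham and 11.35, 11.12, 11.55 and 11.14 after MI. In caPI3K hearts it was 11.84, 11.83, 11.78 and 12.16 after sham and 11.59, 11.71, 11.55 and 11.48 after MI. MI arrays lie below all sham arrays in dnPI3K and in caPI3K hearts, and in Ntg hearts they do so except for Ntg sham replicate 4, which is below all 4 Ntg MI arrays.

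The MI difference of *Gstk1* was -1.02 (SE 0.14) in dnPI3K hearts, 0.492 times the sham level. It was -0.39 (SE 0.14) in Ntg and -0.32 (SE 0.14) in caPI3K hearts. Without Ntg sham replicate 4 the Ntg difference was -0.61, past the threshold, but calls over all genes then also rose from 115 to 671. Without the 3 arrays with Y-linked signal the caPI3K difference was -0.57. Ntg sham replicate 4 also has the highest mean of the 10 fibroblast markers among Ntg sham arrays, 12.64 against 11.74 to 11.94 in the other 3, and the part of this in its *Gstk1* value was not tested. The MI effect in dnPI3K minus that in Ntg was -0.63 (SE 0.20), and the MI effect in caPI3K minus that in dnPI3K was 0.71 (SE 0.20), or 0.45 (SE 0.27) without the 3 arrays with Y-linked signal. The order of the means runs from dnPI3K sham at 12.31 ± 0.09 (SD, n = 4) to dnPI3K MI at 11.29 ± 0.20 (SD, n = 4), and arrays of every pair of neighbouring groups overlap.

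*Gsta3*, a further alpha class gene, is known in the mouse for the detoxification of aflatoxin epoxide. Its level was 9.84, 9.47, 10.04 and 8.96 in Ntg sham hearts and 9.85, 8.36, 8.15 and 8.86 in Ntg MI hearts. In dnPI3K hearts it was 9.88, 10.28, 9.88 and 9.78 after sham and 9.66, 8.93, 8.91 and 9.85 after MI. In caPI3K hearts it was 8.24, 8.14, 8.13 and 7.48 after sham and 8.47, 9.15, 8.44 and 8.22 after MI. All 4 caPI3K sham arrays lie below all 8 sham arrays of the other genotypes, and the SD within a group reached 0.76 in Ntg MI hearts.

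Against Ntg sham, *Gsta3* differed in caPI3K sham hearts by -1.58 (SE 0.29), 0.335 times the level, and against dnPI3K sham by -1.96 (SE 0.29), 0.258 times. The Ntg comparison was not past the threshold without Ntg sham replicate 1 or 3 or caPI3K sham replicate 4. Among the 4 caPI3K sham arrays the lowest, 7.48 against 8.13 to 8.24, is the one without Y-linked signal. On that array alone the differences were -2.10 (SE 0.47) against Ntg and -2.47 (SE 0.47) against dnPI3K, with the spread taken from the other groups. The MI differences were -0.77 in Ntg, -0.61 in dnPI3K and 0.57 in caPI3K hearts (SE 0.29 each), and in each genotype the arrays of the operations overlap. The MI effect in caPI3K minus that in Ntg was 1.35 (SE 0.41). Without the 3 arrays with Y-linked signal the caPI3K MI difference was 1.09 (SE 0.47) and this difference of effects 1.86 (SE 0.56). The second probe set of *Gsta3* correlated with the first at r = 0.87 over 24 arrays and differed by -1.04 and -1.41 in the same sham comparisons. Its MI difference in caPI3K hearts was -0.21, the opposite sign to the brighter probe set.

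*Gsta3* was set beside fat markers, since fat tissue can be carried with a heart. Of 9 adipocyte markers 5 were measured (*Adipoq*, *Cidec*, *Fabp4*, *Retn* and *Car3*), and their mean level ranged from 9.09 to 10.06 on caPI3K sham arrays, 9.96 to 10.40 on Ntg sham arrays and 10.27 to 10.80 on dnPI3K sham arrays. The caPI3K sham replicates 1 to 3, with Y-linked signal, were at 9.73, 9.09 and 9.61. Replicate 4, without that signal, was at 10.06, inside the Ntg sham range, and had the lowest *Gsta3* level, 7.48. In the caPI3K against dnPI3K sham comparison 3 of the 5 were called lower, where 9.88% of all genes were called in either direction. Across the 24 arrays *Gsta3* correlated with the mean of the 5 at r = 0.49, and with single markers from r = 0.06 for *Cidec* to r = 0.53 for *Adipoq*. Other members had similar values with that mean, r = 0.51 for *Gstp1*, 0.49 for *Gstt1*, 0.49 for *Gstm5*, 0.46 for *Gstk1* and 0.44 for *Gstm1*, while *Gsta4* was at -0.04 and *Gsto1* at -0.34. The part of fat tissue in the members' values was not tested.

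**Figure D2:**
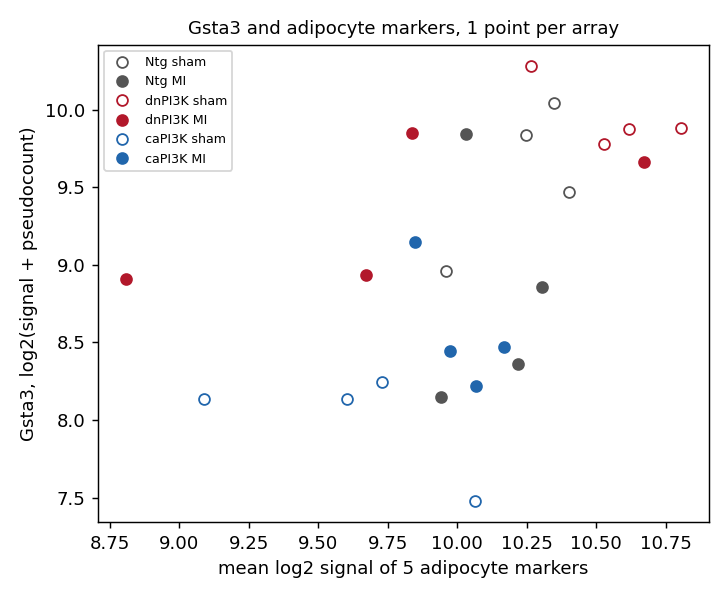
*Gsta3* level (y axis, log2 signal) against the mean log2 level of 5 adipocyte markers (x axis) on 24 arrays, with groups by colour and open points for sham. Pearson's r is 0.49; the 4 caPI3K sham arrays have the lowest *Gsta3* values as a group, between 7.48 and 8.24.

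*Gstp1* is the pi class gene, whose protein is also known to bind the stress kinase JNK. Its level was 13.65, 13.64, 13.39 and 13.40 in Ntg sham and 13.44, 13.52, 13.22 and 13.38 in Ntg MI hearts. It was 13.68, 13.40, 13.49 and 13.46 in dnPI3K sham and 13.27, 13.16, 13.23 and 13.15 in dnPI3K MI hearts. In caPI3K hearts it was 13.42, 13.39, 13.36 and 13.55 after sham and 13.33, 13.38, 13.29 and 13.40 after MI. The dnPI3K MI group is the lowest, at 13.20 ± 0.06 (SD, n = 4), and does not overlap with the next lowest, caPI3K MI at 13.35 ± 0.05 (SD, n = 4). It does overlap with Ntg MI, where replicate 3 was at 13.22. The MI difference was -0.31 (SE 0.08) in dnPI3K, -0.13 in Ntg and -0.07 in caPI3K hearts. The dnPI3K value was not past the threshold without dnPI3K sham replicate 1, and it was -0.21, still past it, after quantile normalization.

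Among the mu class genes, *Gstm5* was 12.32, 12.68, 12.11 and 12.11 in Ntg sham hearts and 12.16, 12.30, 12.26 and 12.10 in Ntg MI hearts. It was 12.36, 12.18, 12.28 and 12.28 in dnPI3K sham and 11.96, 11.82, 12.06 and 11.99 in dnPI3K MI hearts, with no overlap. In caPI3K hearts it was 12.12, 11.99, 11.99 and 12.13 after sham and 12.21, 12.13, 11.89 and 12.13 after MI. The MI difference of *Gstm5* was -0.32 (SE 0.10) in dnPI3K, -0.10 in Ntg and 0.03 in caPI3K hearts. The dnPI3K value was not past the threshold after quantile normalization (-0.27), without the intensity trend, or without 1 array in 6 of 8 cases.

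*Gstm7* was 9.98, 10.49, 10.34 and 9.94 in Ntg sham hearts and 10.13, 10.08, 10.14 and 9.92 in Ntg MI hearts. It was 10.27, 10.45, 10.37 and 10.60 in dnPI3K sham and 9.80, 9.89, 10.28 and 10.08 in dnPI3K MI hearts, which overlap by 1 array on each side. In caPI3K hearts it was 9.97, 10.15, 10.04 and 10.15 after sham and 10.08, 9.79, 10.05 and 9.98 after MI. Its MI difference was -0.41 (SE 0.12) in dnPI3K hearts, -0.11 in Ntg and -0.10 in caPI3K hearts. The dnPI3K value was not past the threshold under 4 of 9 other settings, nor without 1 array in 4 of 8 cases. The second *Gstm7* probe set, much dimmer, correlated with the first at r = 0.29 and differed by -0.54 after MI in dnPI3K hearts.

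*Gstm1* and *Gstm2*, the other mu class genes, were called in none of the 12 comparisons with their brightest probe set. *Gstm1* group means ran from 13.24 ± 0.13 (SD, n = 4) in Ntg sham to 12.94 ± 0.04 (SD, n = 4) in caPI3K MI hearts, and its MI differences were -0.22, -0.19 and -0.05 in Ntg, dnPI3K and caPI3K hearts (SE 0.09 each). *Gstm1* has 4 probe sets, and the brightest is of a kind that may also bind related transcripts. The other 3 correlated with it at r = 0.17, 0.52 and 0.78 over 24 arrays and differed after MI in dnPI3K hearts by -0.52, -0.33 and -0.29. The last of these, the next brightest, was past the threshold there and, at -0.28, in caPI3K against dnPI3K sham hearts. The mean of all 4 was past it in the latter comparison too, at -0.38. *Gstm2* group means ran from 12.18 in Ntg MI to 11.96 in caPI3K sham hearts, with MI differences of 0.11, -0.19 and 0.09 (SE 0.10 each).

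*Gstt1*, the theta class gene, had group means from 10.50 in dnPI3K sham to 10.15 in caPI3K sham hearts, and these groups of arrays do not overlap. Its MI differences were -0.09, -0.16 and 0.06 in Ntg, dnPI3K and caPI3K hearts (SE 0.12 each). *Gsto1*, the omega class gene, encodes an enzyme better known for reducing dehydroascorbate and mixed disulfides than for conjugation. Its 6 group means lay within 0.10 of each other, from 12.95 to 13.06, and it was the single member whose MI difference in dnPI3K hearts was above 0, at 0.10 (SE 0.09). The probe set used for *Gsto1* is of the same kind as the brightest of *Gstm1*. A second one, nearly as bright (mean 12.94 against 13.01), correlated with it at r = 0.51. Its MI differences were -0.04, 0.13 and 0.13 in Ntg, dnPI3K and caPI3K hearts, against 0.04, 0.10 and 0.08 for the first.

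After MI in dnPI3K hearts, 9 of 10 genes had a negative difference and 5 were called lower by limma with Benjamini-Hochberg adjustment: *Gsta4*, *Gstk1*, *Gstm5*, *Gstm7* and *Gstp1*. Over all genes 5.19% were called lower in that comparison. Arrays of sham and MI did not overlap for 4 of the 5, all but *Gstm7*, against 7.1% of all genes that were lower without overlap. The median difference was -0.31 over the 10 genes and 0.01 over all genes. Since the genes were chosen with these values known, nothing is read from the counts. In order of the fit's ranking, *Gstm5* was the last member called, at -0.32 (SE 0.10), and *Gstm1* the first not called, at -0.19 (SE 0.09) and well outside the threshold.

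In Ntg hearts 0 of 10 were called after MI, against 0.779% of all genes, and in caPI3K hearts 0 of 10, against 1.11%. At an unadjusted p below 0.05 the counts were 3 of 10 in Ntg hearts (12% of all genes), 1 of 10 in caPI3K hearts (12.2%) and 7 of 10 in dnPI3K hearts (21.9%). The Ntg median was -0.11 with 8 of 10 genes below 0; it was -0.17 without Ntg sham replicate 4 and -0.06 when the arrays numbered 415 to 418 were left out. The caPI3K median was -0.01 with 5 of 10 below 0, and -0.10 with 6 of 10 below 0 without the 3 arrays with Y-linked signal, where *Gsta4*, *Gstm2* and *Gstm5* changed sign, to 0.01, -0.16 and -0.04. This median, close to 0, took either sign when single arrays were left out. Differences between MI effects were called for 0 of 14763 genes in each of the 3 pairs of genotypes, with 1122, 815 and 1504 genes at an unadjusted p below 0.05 for dnPI3K against Ntg, caPI3K against Ntg and caPI3K against dnPI3K. These are 7.6%, 5.52% and 10.2% of all genes, and for the 10 members those counts were 3, 1 and 6. No difference in MI effect between genotypes was therefore called for any member.

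**Figure D3:**
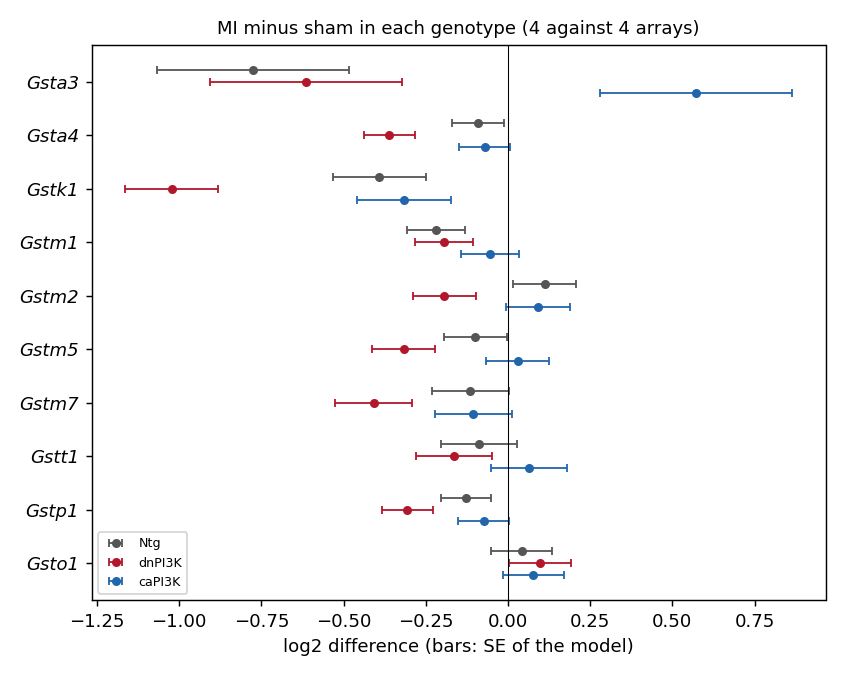
MI minus sham for each gene in Ntg, dnPI3K and caPI3K hearts, in log2 units, with bars of 1 SE from the model. In dnPI3K hearts 9 of 10 values lie below 0 and *Gstk1* is the lowest at -1.02; *Gsta3* in caPI3K hearts is the highest value at 0.57.

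Between genotypes the signs differed among members. Against Ntg sham, dnPI3K sham hearts had 5 genes above and 5 below 0 with a median of 0.01, and 1 was called, *Gsta4* (1.12% of all genes were called in either direction). That median ranged from -0.05 without Ntg sham replicate 4 to 0.14 without the sham arrays numbered 415 to 418. Against Ntg sham, caPI3K sham hearts had 9 of 10 genes below 0 with a median of -0.17, and 1 was called, *Gsta3* (0.257% of all genes). Without the 3 arrays with Y-linked signal 6 of 10 were below 0 with a median of -0.07, and *Gstk1*, *Gstm2* and *Gstp1* changed sign. The median was also nearer 0 without Ntg sham replicate 2 (-0.08) and when the arrays numbered 415 to 418 were left out (-0.05). Between caPI3K and dnPI3K sham hearts *Gsta3* was called lower and *Gsta4* higher, 2 of 10 against 9.88% of all genes, with a median of -0.22, or -0.11 without the 3 arrays with Y-linked signal. In that comparison, with all arrays, the arrays of the groups did not overlap for 6 of 10 genes, *Gsta3*, *Gstk1*, *Gstm5*, *Gstm7* and *Gstt1* lower and *Gsta4* higher, against 16.7% of all genes. After MI, *Gsta4* alone was called in dnPI3K against Ntg (2.58% of all genes) and in caPI3K against dnPI3K (4.21%). In caPI3K MI against Ntg MI hearts 0 members and 0 of all genes were called by limma, with 0 members and 682 genes at an unadjusted p below 0.05. Comparisons that share a group share its arrays, so their values are not independent.

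**Figure D4:**
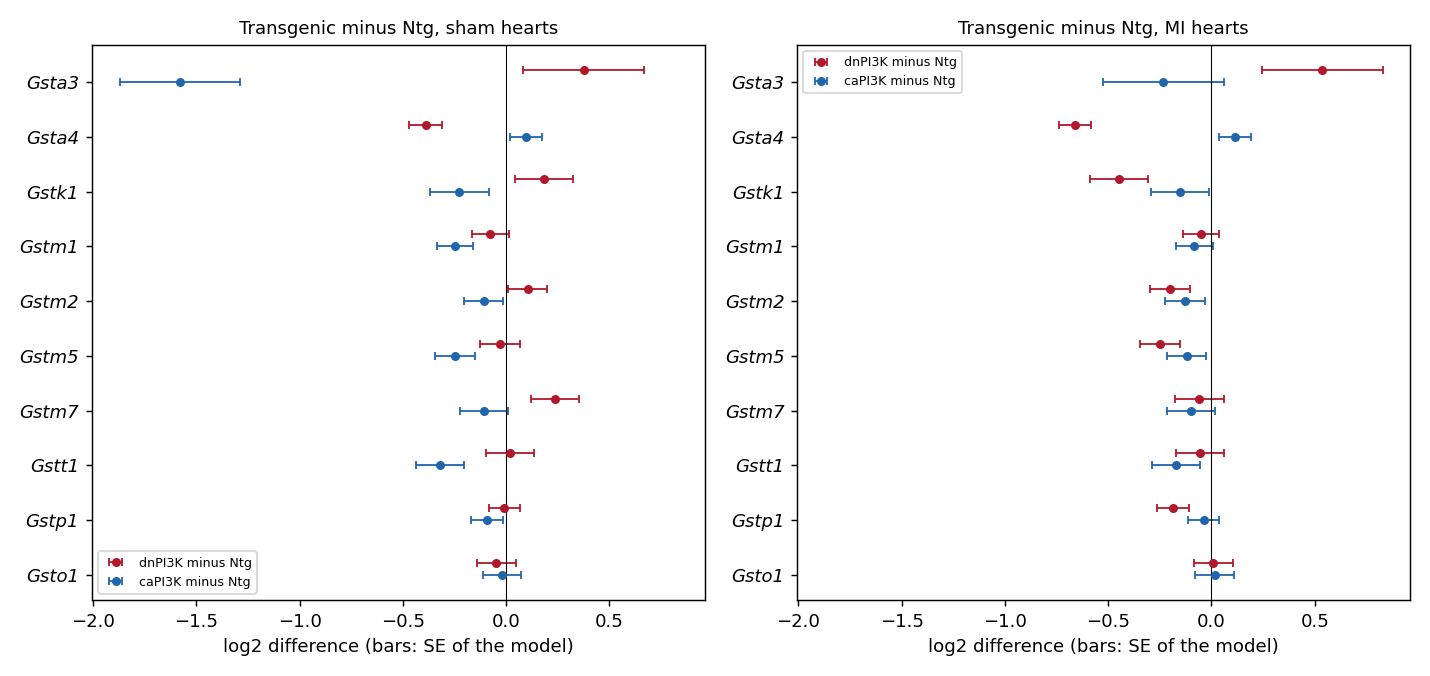
Difference of dnPI3K and caPI3K hearts from Ntg hearts for each gene, in sham hearts and in MI hearts, in log2 units with bars of 1 SE. *Gsta4* lies below 0 in dnPI3K hearts in both panels (-0.39 and -0.66), and *Gsta3* lies lowest in caPI3K sham hearts (-1.58).

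Within groups the members varied together only weakly. For the 45 pairs of genes, the correlation of their deviations from the group means over 24 arrays had a median of 0.15 and ranged from -0.29 to 0.70, with 31 pairs above 0. The highest pairs were *Gsta3* with *Gstt1* at 0.70, *Gstk1* with *Gstm5* at 0.60, *Gstm5* with *Gstp1* at 0.60 and *Gstm2* with *Gsto1* at 0.54. Members share their arrays, so these values also carry whatever set an array apart.

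The genes outside the family with the most similar patterns were found for the 3 members with the widest range of group means, by Pearson's r over the 24 arrays. For *Gsta4* they were *Grb14* (r = 0.96), *Tecr* (0.96) and *Lrtm1* (0.95). For *Gstk1* they were *Ift81*, *Fdft1* and *Ttll1*, each at 0.95. For *Gsta3* they were *Cdh19* (0.91), *Wrnip1* (0.87) and *Abcg2* (0.86). After the group means were removed, r with the member was 0.64, 0.70 and 0.73 for the first 3, 0.87, 0.79 and 0.90 for the next 3, and 0.81, 0.61 and 0.87 for the last 3. *Gstk1*, *Ift81*, *Fdft1* and *Ttll1* each had their largest SD in Ntg sham hearts, at 0.45, 0.54, 0.35 and 0.83. The part of that group in their r values was not tested.

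Of 20 further glutathione transferases and membrane-bound MAPEG enzymes, 17 were measured. After MI in dnPI3K hearts, where 5.19% of all genes were called lower, 1 of 17 fell: *Mgst3*, a microsomal enzyme. Its level was 14.41, 14.08, 14.10 and 14.13 in dnPI3K sham and 13.75, 13.58, 13.60 and 13.35 in dnPI3K MI hearts, a difference of -0.61 (SE 0.12, limma, adjusted p = 0.0013). It was called under all 16 other settings, at -0.67 to -0.44. The median of the 17 was 0.12 in that comparison, above 0, where the 10 members had -0.31. Some of the 17 are much dimmer than the members, so these medians do not compare like with like. *Gstm6* and *Gstt4* had means of 5.65 and 5.37 in dnPI3K sham hearts, whereas the lowest value of any member on any array was 7.48. In Ntg and caPI3K hearts 0 of 17 were called by limma after MI (0.779% and 1.11% of all genes). At an unadjusted p below 0.05 there were 2 and 1 (12% and 12.2% of all genes). Between caPI3K and dnPI3K sham hearts, where 9.88% of all genes were called in either direction, 1 of 17 was higher. It was *Mgst1*, by 0.39 (SE 0.12, limma, adjusted p = 0.0336), and this call was lost under 9 of 17 other settings. *Gsta2*, a dim alpha class gene, was at 4.79 to 7.01 in dnPI3K sham and 7.19 to 7.79 in caPI3K sham hearts; its difference of 1.39 (SE 0.46) was not past the threshold (limma, adjusted p = 0.0549).

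NRF2 regulators and targets, 21 of 23 measured, were followed because *Gsta4* was low in dnPI3K hearts. Between caPI3K and dnPI3K sham hearts 5 of 21 were higher in caPI3K and 0 lower, where 9.88% of all genes were called in either direction. The 5 were *Me1*, which makes NADPH, by 1.04 (SE 0.09, limma, adjusted p = 7.71e-09), *Aox1*, an aldehyde oxidase, by 0.80, *Nqo1*, a quinone reductase, by 0.83, *Txnrd1*, a thioredoxin reductase, by 0.71, and *Srxn1*, a sulfiredoxin, by 0.78. The *Txnrd1* call was lost with the mean of all its probe sets and without the sham arrays numbered 415 to 418. Its lowest difference under other settings was 0.32. On the 1 caPI3K sham array without Y-linked signal the differences were 1.07, 0.90, 0.84, 0.80 and 0.77 for *Me1*, *Aox1*, *Nqo1*, *Txnrd1* and *Srxn1*, the last 3 not past the threshold in a fit that takes this array's spread from the other groups. Against Ntg sham, dnPI3K sham hearts had lower *Me1* by -0.73 (SE 0.09, limma, adjusted p = 1.05e-05) and lower *Aox1* by -0.62 (SE 0.13, limma, adjusted p = 0.0114). These are 2 of 21, against 1.12% of all genes called in either direction. The *Aox1* call was lost under 4 of 16 other settings. They were no intensity trend, only the groups compared, without the sham arrays numbered 415 to 418, and without Ntg sham replicate 4. The list median was 0.09 in the first comparison and -0.04 in the second.

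After MI, dnPI3K hearts had lower *Nqo1* than Ntg hearts by -0.73 (SE 0.15, limma, adjusted p = 0.00692). Its level was 10.86, 10.88, 10.49 and 10.94 in Ntg MI hearts and 10.01, 9.90, 9.85 and 10.51 in dnPI3K MI hearts, which overlap by 1 array on each side. *Me1* was lower by -0.36 (SE 0.09, limma, adjusted p = 0.0212), lost under 9 of 15 other settings. In caPI3K against dnPI3K MI hearts *Me1*, *Nqo1* and *Aox1* were higher by 0.54, 0.73 and 0.54 (limma, adjusted p = 0.00031, 0.00388 and 0.0163) and *Ephx1*, an epoxide hydrolase, was lower by -0.40 (adjusted p = 0.0368). The MI comparison within dnPI3K hearts gave 3 of 21 higher, *Ugdh*, *Txnrd1* and *Ephx1* at 0.45, 0.57 and 0.36, and 2 lower, *Fth1* and *Bach1* at -0.27 and -0.30. Over all genes 1390 of 14763 were called there in either direction. Under quantile normalization *Fth1*, the ferritin heavy chain, was at -0.04 and not called, and the calls of *Bach1* and *Ephx1* were lost under 11 and 8 of 16 other settings. The calls of *Txnrd1* and *Ugdh* were each lost under 2 of 16. For *Txnrd1* these were the mean of all its probe sets and leaving out the sham arrays numbered 415 to 418, and its lowest difference was 0.28. In that comparison *Gsta4* was lower while *Me1*, *Nqo1* and *Aox1* were not called.

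**Figure D5:**
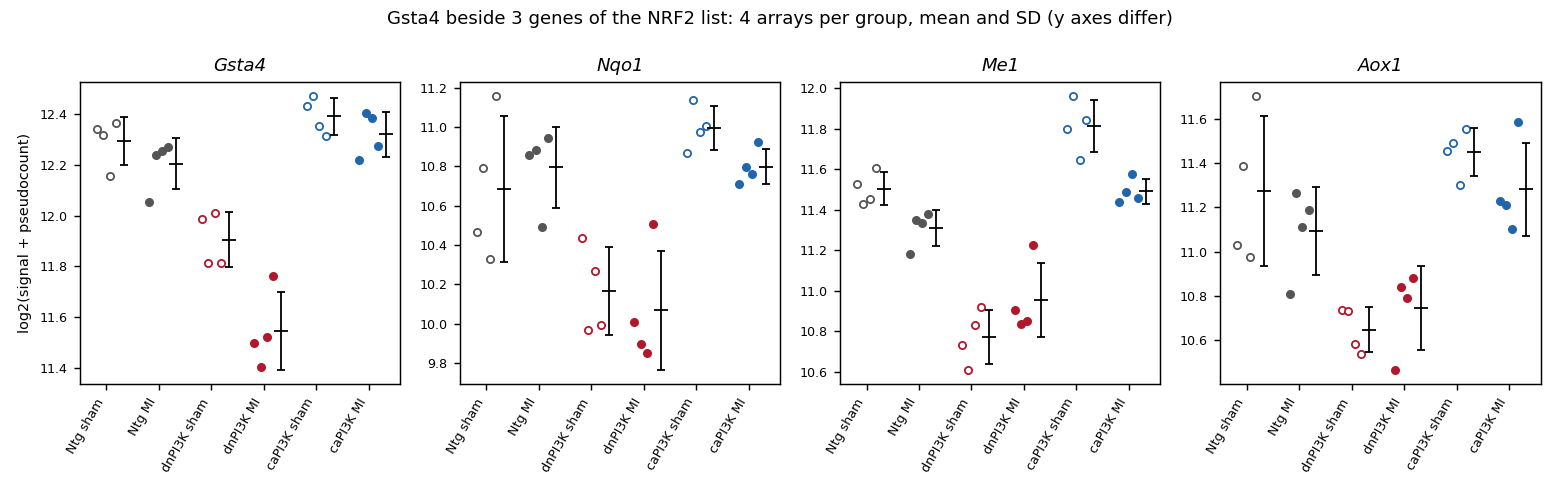
Levels of *Gsta4*, *Nqo1*, *Me1* and *Aox1* on every array (y axis, log2 signal; x axis, the 6 groups; open points sham, filled points MI; bars, mean and SD of 4 arrays). All 4 genes have their lowest group means in the 2 dnPI3K groups. The 3 genes beside *Gsta4* are a choice from the 21 measured genes of the NRF2 list, and others of that list differ. *Ephx1* and *Ugdh* had their highest group means in dnPI3K MI hearts, at 12.16 and 10.23.

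Glutathione synthesis, recycling and export was measured for 18 of 22 genes. *Ggct*, which breaks down gamma-glutamyl compounds, fell after MI in dnPI3K hearts by -0.74 (SE 0.10, limma, adjusted p = 9.54e-05), from 10.78, 10.67, 10.48 and 10.62 to 10.07, 9.71, 9.90 and 9.91. With the mean of all its probe sets the difference was -0.36 and not called. In Ntg hearts its difference was -0.47 (SE 0.10, limma, adjusted p = 0.0248), a call lost under 11 of 16 other settings. *Chac1*, which degrades glutathione, was higher after MI in dnPI3K hearts by 0.64 (SE 0.19, limma, adjusted p = 0.0276). *Chac2*, a further enzyme of that kind, was lower in dnPI3K than in Ntg hearts after MI by -0.54 and higher in caPI3K than in dnPI3K hearts by 0.56 after sham and 0.61 after MI (limma, adjusted p = 0.0157, 0.00422 and 0.00395). The sham difference of *Chac2* was 0.63, not past the threshold, without the 3 arrays with Y-linked signal. *Oplah*, which opens the ring of 5-oxoproline, differed by -0.85 in dnPI3K against Ntg sham and by 1.08 in caPI3K against dnPI3K sham hearts (limma, adjusted p = 0.0261 and 0.000517), and neither call held without the 4 sham arrays numbered 415 to 418, and the latter was 1.02, not past the threshold, without the 3 arrays with Y-linked signal.

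Aldehyde and lipid peroxide clearance was measured for 16 of 17 genes. After MI in dnPI3K hearts *Aldh1a1* was higher by 0.52, while *Adh5* and *Aldh2* were lower by -0.29 and -0.27 (limma, adjusted p = 0.0206, 0.0252 and 0.0434). Under quantile normalization *Aldh2* was at -0.08 and not called, and *Adh5* was not called either. The calls of *Aldh1a1*, *Adh5* and *Aldh2* were lost under 5, 6 and 11 of 16 other settings. *Ephx2*, the soluble epoxide hydrolase, was higher in caPI3K than in dnPI3K hearts by 0.49 after sham and 0.47 after MI (limma, adjusted p = 0.00492 and 0.0134), and the sham difference was 0.56, not past the threshold, without the 3 arrays with Y-linked signal. *Aldh7a1* was lower in caPI3K than in dnPI3K sham hearts by -0.37 (limma, adjusted p = 0.0173), a call lost under 5 of 17 other settings; without those 3 arrays it was -0.23. In Ntg hearts *Aldh9a1* fell after MI by -0.50 (limma, adjusted p = 0.0362), a call lost under 11 of 16 other settings. The list median after MI was -0.17 in dnPI3K, 0.01 in Ntg and -0.02 in caPI3K hearts.

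Over all 14763 genes, 115, 1390 and 164 were called after MI in Ntg, dnPI3K and caPI3K hearts, in either direction. Fibroblast markers were higher after MI in all 3 genotypes. Of 10 fibroblast markers 4, 5 and 3 rose after MI in Ntg, dnPI3K and caPI3K hearts, with medians of 0.57, 0.63 and 0.64, and in dnPI3K hearts their mean level was 12.01 to 12.37 after sham and 12.74 to 13.08 after MI. Of 10 cardiomyocyte markers 2 fell after MI in dnPI3K hearts, with a median of -0.23, and their mean level there was 15.24 to 15.58 on sham and 15.09 to 15.21 on MI arrays. In Ntg and caPI3K hearts 0 of the 10 were called by limma after MI, with medians of -0.22 and -0.08. At an unadjusted p below 0.05 there were 8 in Ntg, 7 in dnPI3K and 1 in caPI3K hearts. In dnPI3K hearts after MI, limma called 1 of 13 macrophage markers higher, 0 of 10 endothelial markers (2 at an unadjusted p below 0.05), and 1 higher and 1 lower of 9 smooth muscle and pericyte markers, with medians of 0.35, 0.09 and -0.08. Of 3 red blood cell markers 0 were called there (0 at an unadjusted p below 0.05), with a median of 0.26. Of 5 adipocyte markers 3 fell there, with a median of -0.71, and their mean level was 10.27 to 10.80 on sham and 8.81 to 10.67 on MI arrays of dnPI3K hearts. The 99th percentile of signal was also lower on dnPI3K MI arrays, at 15778 to 16769 against 17853 to 20369 on dnPI3K sham arrays. After quantile normalization, which removes that difference, 4 of the 5 members stayed called after MI in dnPI3K hearts, all but *Gstm5*, and the median of the 10 was -0.24. The part of these markers in the members' values was not tested.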

How the data were processed

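The deposited values are signal intensity per probe set, which the authors made with MAS5, per the submitters' processing notes, with no version or scaling target stated. The deposited signal has a mean of 500.003 to 500.004 per array after 2% is trimmed at each end, so no further normalization was applied. Of 45101 probe sets, 64 controls were left out and 34945 name 1 gene. A probe set was kept when above the 40th percentile of its array on at least 4 arrays, and the brightest per gene was used, which left 14763 genes. The number of arrays limits the precision. Log2 of signal plus 11.23 (the median signal divided by 10) was modelled with 6 group means in limma 3.58.1 (R 4.3.3), with an intensity trend and 18 residual degrees of freedom. There were 12 comparisons, and p-values were adjusted over all genes by Benjamini-Hochberg, with calls at an adjusted p below 0.05. The method was tested on simulated data. Other settings were quantile normalization, no filter, the mean of all probe sets, no trend, the next probe set, only the groups compared, and arrays left out. Members and gene lists were chosen with earlier results of these data known. Named genes are all members, up to 4 genes of smallest p per related list and comparison, the 3 most correlated genes for each of 3 members, and sex-linked and defining markers where they move with a result.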

Additional observations from a re-analysis of the deposited data

Results flagged for a closer look

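In 5 of the 60 sets of 4 arrays (10 genes in 6 groups), 1 array lay far from the other 3 relative to the group's range; chance marks about 1 in 20. *Gsta3* in caPI3K sham replicate 4 was 7.48, against 8.13 to 8.24 in the other 3. *Gstk1* on the same array was 12.16, against 11.78 to 11.84, and this is the caPI3K sham array without Y-linked signal. *Gsta4* in Ntg MI replicate 1 was 12.06, against 12.24 to 12.27. *Gstm1* in dnPI3K sham replicate 1 was 12.96, against 13.21 to 13.25. *Gstt1* in dnPI3K MI replicate 1, the array with the highest median signal, was 10.50, against 10.25 to 10.30.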

How the results depend on the processing

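Of 97 counts of members called under other settings that leave out no single replicate, 88 were equal to the reported count or within 1.5 times of it. A count of 0 that stayed 0 is among these 88, so their share says little about stability. Of 180 values of the called members' differences 0 changed sign, while 122 of 2038 values of differences not called did. The dnPI3K against Ntg sham count of 1 became 0 without the sham arrays numbered 415 to 418 and 0 with only the groups compared. The caPI3K against Ntg sham count of 1 became 0 with the mean of all probe sets, with no intensity trend, without the arrays with Y-linked signal and without the arrays numbered 415 to 418. The caPI3K against dnPI3K sham count of 2 became 1 without the arrays with Y-linked signal and 6 with only those groups. The difference of MI effects between caPI3K and dnPI3K went from 0 to 1 (*Gstk1*) with only those groups. With 1 array left out, the MI counts ranged from 0 to 1 in Ntg (1 without Ntg sham replicate 4), 3 to 5 in dnPI3K and 0 to 0 in caPI3K hearts. These counts stand without shares over all genes, and calls over all genes moved as well. Without Ntg sham replicate 4 they went from 115 to 671 in Ntg hearts. Without dnPI3K sham replicate 1 they went from 1390 to 842 in dnPI3K hearts. The sham counts ranged from 0 to 1 for dnPI3K against Ntg (0 without dnPI3K sham replicate 2), 0 to 2 for caPI3K against Ntg and 2 to 3 for caPI3K against dnPI3K. The caPI3K against Ntg count was 0 without Ntg sham replicate 1 or 3 or caPI3K sham replicate 4, and 2 without Ntg sham replicate 4. The causes were not tested. *Gstk1* and *Gsta4* after MI in dnPI3K hearts, and *Gsta4* in both MI comparisons of dnPI3K hearts, were called under all settings run. *Gsta3* in caPI3K against dnPI3K sham hearts was called under all settings that leave more than 1 caPI3K sham array. Of 40 calls of related genes 8 held under every setting, and these settings were chosen after seeing the data. No paired analysis was possible because the groups share no array numbers.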
